A study of Mus musculus with 6 samples.

Results

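The Notch genes described here are 3 receptors (Notch1, Notch2 and Notch3), 3 ligands (Jag1, Jag2 and Dll1), 3 target genes of the pathway (Hes1, Hey1 and Heyl) and the DNA-binding factor Rbpj, picked by symbol from a table of read counts. These are 10 of 24028 genes in the table, and all 10 had enough counts to be tested. The counts come from polyadenylated RNA of 6 cultures of a single clonal line of C2C12, an immortalised mouse myoblast line, selected with puromycin for the MMH6 transgene. The transgene is codon-altered and inducible by doxycycline, and its product is a chimera, with mouse Dux up to the end of the homeodomains followed by the carboxy terminus of human DUX4. There were 3 uninduced cultures without doxycycline and 3 induced cultures with 2 µg/ml doxycycline. The induction lasted 18 h by the series text but 36 h by the protocol of the samples, and which of them holds is uncertain. All 6 cultures carry the transgene and come from 1 clone, and cells given doxycycline without the transgene were not analysed here. Each difference is therefore that of the drug and the transgene together in this clone.

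Notch receptors are membrane proteins that are cut when a Jagged or Delta ligand on a neighbouring cell binds them. The freed intracellular domain enters the nucleus and joins RBPJ, which otherwise holds target genes silent, to switch on genes of the Hes and Hey families, themselves repressors of transcription. In skeletal muscle the pathway is known for holding muscle stem cells and myoblasts back from differentiation, in part by restraining Myod1.

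The libraries held 21.5 to 24.5 M counts each. Counts at the Dux row, used as a check of the labels, were 1, 3 and 0 without induction and 252, 216 and 220 with it, although the codon-altered transgene need not be counted there. All 6 listed myoblast markers were above 1 CPM (counts per M of library counts, on library sizes scaled with TMM, which sets the middle of all genes level between groups). The summed markers lay between 1970 and 1990 CPM without induction and between 1160 and 1200 CPM with it. Of the 6, 5 were called lower, where 41.2% of all genes tested were. Des, which made most of the sum, went from a mean of 1042 to 689 CPM, and Chrna1, not called, from 347 to 340. Myod1 went from 178 to 37.1, Cdh15 from 220.5 to 45.6, Myog from 172 to 66.0 and Myf5 from 14.6 to 6.20 CPM. Markers of other cell types differed in level. The 4 neuronal markers summed to 57.1 to 61.5 CPM without induction and 101 to 110 CPM with it, mostly Tubb3. Rbfox3 and Snap25 were at 0 in uninduced libraries and at no more than 2 counts in any induced library. The 4 endothelial markers summed to 0.0647 to 0.459 and 2.05 to 2.41 CPM, mostly Pecam1 and Tek in induced libraries. Kdr was at 0 in uninduced libraries and at 0, 0 and 3 counts in induced ones, and Cdh5 overlapped between the groups. The 3 adipocyte markers summed to 0.389 to 0.582 and 6.83 to 7.96 CPM, nearly all of it Fabp4. Adipoq and Plin1 were at 0 in uninduced libraries and at no more than 5 counts in any induced library. The 3 osteoblast markers summed to 2.72 to 3.40 and 0.746 to 0.971 CPM. The 3 macrophage and leukocyte markers stayed at or below 1.42 CPM in sum, and the 4 epithelial markers at or below 0.658 CPM. The part of these marker differences in the results below was not tested. In bulk RNA, fewer cells expressing a gene and less RNA per cell cannot be told apart.

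The comparison asked how the Notch genes differed between induced and uninduced cells. Among the ligands and among the targets, called members of the same role moved in opposite directions. The ligand Jag1 rose and Jag2 fell, the target Hey1 rose while Hes1 and Heyl fell, and the receptor Notch3 fell while Notch2 was not called. Notch1 and Rbpj rose with TMM scaling but were lower with scaling by library size alone. By edgeR's quasi-likelihood test, 4 of the 10 members were higher, 4 lower and 2 not called, which is 8 called where 82.5% of the 12969 genes tested were called. The background was 41.3% called higher and 41.2% called lower. For 8 of the 10 members the CPM ranges of the groups were apart, against 83.1% of all genes tested, and 6 members were called with a change of at least 2-fold, against 30.7%. The median log2 fold change of the members was -0.10, beside -0.01 for all genes tested. With so many genes changing, the direction of small changes depends on the scaling. With scaling by library size alone, which put the median of all genes at -0.97 and called 15.2% of genes higher and 76.7% lower, 2 members were higher and 8 lower. With upper-quartile scaling, where that median was at -0.16, 4 members were higher and 6 lower. Of all 12969 genes tested, 4593 were higher and 6191 lower with that scaling.

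**Figure D1:**
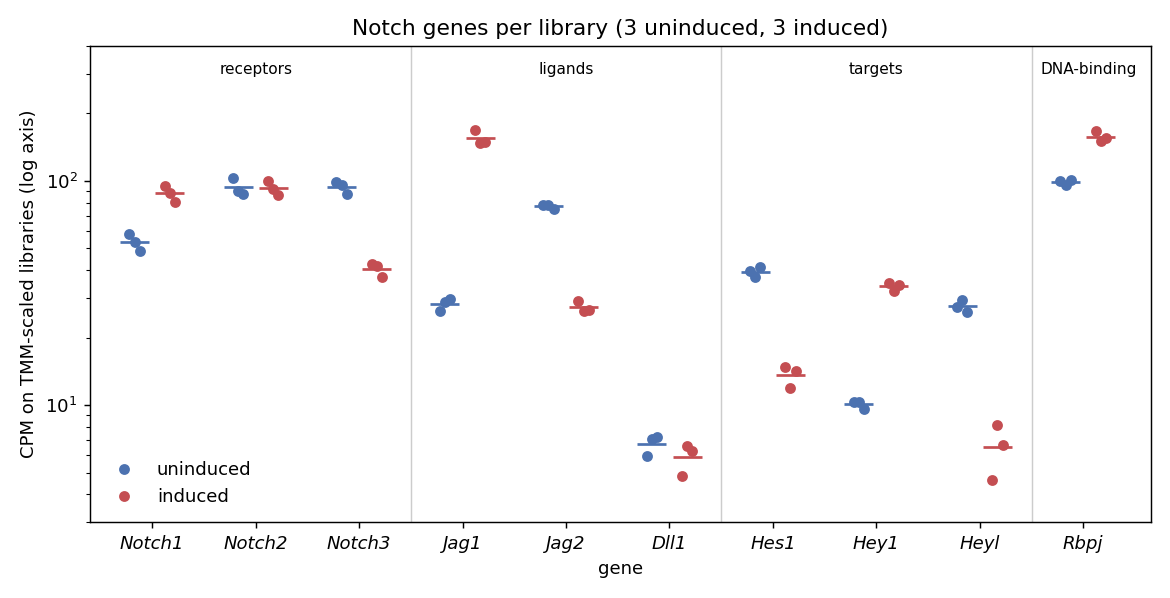
CPM on TMM-scaled libraries (log axis) of the 10 Notch genes in 3 uninduced and 3 induced libraries, with points for libraries and lines for group means. The groups are apart for every gene except Notch2 and Dll1; with scaling by library size alone Notch1 and Rbpj turn to lower.

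Among the receptors, which carry the signal from the cell surface to the nucleus, Notch3 lost ground to Notch1 and Notch2. Notch1, on chromosome 2 at 26457902 to 26503822 of mm10 (GRCm38), was at 58.1, 53.4 and 48.9 CPM in the uninduced libraries and 95.2, 88.1 and 80.6 CPM in the induced libraries. All 3 induced libraries were above all 3 uninduced ones. The log2 fold change was 0.72 ± 0.07 (SE, edgeR adjusted p = 9.4e-09), but it was -0.25 with scaling by library size alone (edgeR adjusted p = 0.00221). Notch1 stood above the median of all genes under both scalings. A change of scaling moves all genes by nearly the same amount, so that keeping this place is no separate result.

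Notch2, on chromosome 3 at 98013538 to 98150367, was at 103.3, 90.4 and 87.8 CPM in uninduced and 100.3, 92.3 and 86.8 CPM in induced libraries. The groups overlapped, and the log2 fold change was -0.01 ± 0.06 (SE, edgeR adjusted p = 0.877). It became a fall of -0.16 with upper-quartile scaling (edgeR adjusted p = 0.0153) and -0.97 with library size only, in both cases at the median of all genes to within 0.01. Notch3, the receptor known from vascular smooth muscle and also made in muscle progenitors, lies on chromosome 17 at 32120820 to 32166896. It was at 98.7, 96.1 and 87.0 CPM in uninduced and 42.7, 41.8 and 37.1 CPM in induced libraries. The groups were well apart, and Notch3 fell by 1.21 ± 0.06 on the log2 scale (SE, edgeR adjusted p = 6.7e-15), with 8.84% of all tested genes lower still. The fourth receptor, Notch4, named for its low level, was not tested, with 10, 14 and 10 counts in uninduced and 5, 9 and 10 counts in induced libraries.

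Among the ligands, Jag1 and Jag2 exchanged places. Jag1 and Jag2 encode the Jagged ligands, which share their overall build and bind the same receptors. Jag1, on chromosome 2 at 137081451 to 137116520, was at 26.4, 28.8 and 29.8 CPM in uninduced and 168, 147 and 149.5 CPM in induced libraries. Every induced library was far above every uninduced one. The log2 fold change was 2.45 ± 0.06 (SE, edgeR adjusted p = 9.7e-21), and 6.38% of all tested genes rose more. Jag2, on chromosome 12 at 112907803 to 112929812, went the other way, from 78.3, 77.7 and 74.7 CPM to 29.2, 26.4 and 26.6 CPM. The groups did not overlap, and Jag2 fell by 1.49 ± 0.06 on the log2 scale (SE, edgeR adjusted p = 1.3e-17). Both directions held under every scaling tried, with Jag1 at 1.49 and Jag2 at -2.45 with scaling by library size alone.

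The ratio of Jag1 to Jag2 counts within a library needs no scaling between libraries. It was 0.337, 0.370 and 0.399 without induction and 5.74, 5.57 and 5.63 with it. Jag2 thus gave more counts than Jag1 in each uninduced library and fewer in each induced one. Dll1, a Delta ligand on chromosome 17 at 15367354 to 15376932, was much lower, at 5.93, 7.02 and 7.21 CPM in uninduced and 4.84, 6.54 and 6.26 CPM in induced libraries. Its groups overlapped and its log2 fold change was -0.20 ± 0.13 (SE, edgeR adjusted p = 0.168). It was called lower with upper-quartile scaling (-0.34, edgeR adjusted p = 0.0199) and with library size only (-1.16). In the GENCODE M21 annotation 20.5% of the exon bases of Dll1 are shared with A930024N18Rik, a non-coding gene on the opposite strand, and the strand setting of the counting is not given in the sources used here.

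The start regions of the 2 Jagged genes are shown because these ligands moved in opposite directions, and that of Rbpj because it alone among the members with a listed window held the core of the RBPJ recognition sequence. Each is a RefSeq window of GRCm38.p6 from 250 bases before to 50 bases after a start, 5′ to 3′ on the gene's own strand. The Jag1 window is at the outer start of the gene span given here. Those of Jag2 and Rbpj lie wholly inside the gene spans given here, and so belong to inner starts. Capitals mark matches to TGGGAA on either strand. The Jag1 window is chr2:137116471-137116770, minus strand, with 55.7% G and C. The Jag2 window is chr12:112929446-112929745, minus strand, with 86.0% G and C. The Rbpj window, the first of 2 overlapping ones listed, is chr5:53590096-53590395, plus strand, with 64.7% G and C.
Jag1: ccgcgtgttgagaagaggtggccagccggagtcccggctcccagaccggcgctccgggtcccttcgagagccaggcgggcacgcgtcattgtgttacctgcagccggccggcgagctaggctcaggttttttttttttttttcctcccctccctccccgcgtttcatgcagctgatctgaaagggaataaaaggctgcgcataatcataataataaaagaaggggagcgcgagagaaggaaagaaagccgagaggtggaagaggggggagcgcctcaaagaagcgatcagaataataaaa
Jag2: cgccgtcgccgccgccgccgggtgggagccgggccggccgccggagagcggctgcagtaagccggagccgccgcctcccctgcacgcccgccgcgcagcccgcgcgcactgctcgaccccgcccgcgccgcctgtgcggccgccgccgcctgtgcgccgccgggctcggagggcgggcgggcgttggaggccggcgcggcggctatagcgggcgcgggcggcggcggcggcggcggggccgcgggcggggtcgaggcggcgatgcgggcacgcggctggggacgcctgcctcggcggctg
Rbpj: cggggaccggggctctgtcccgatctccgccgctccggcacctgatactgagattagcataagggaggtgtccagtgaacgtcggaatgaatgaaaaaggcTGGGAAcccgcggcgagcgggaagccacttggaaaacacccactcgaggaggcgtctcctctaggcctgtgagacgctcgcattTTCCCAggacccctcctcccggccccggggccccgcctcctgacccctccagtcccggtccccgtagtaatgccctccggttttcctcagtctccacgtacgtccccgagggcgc

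Among all 32851 windows of this length the median G and C content was 52.7% and the 95th percentile 73.7%, so that the Jag2 window lay above that percentile and the Jag1 window near the median. Windows were listed for 7 of the 10 members, 9 windows in all, and not for Hes1, Hey1 and Heyl. The core TGGGAA was found in 2 of the 9 windows, a share near that of all windows, 25.6%. Both are of Rbpj, overlap and share 1 match, so that the core was found for 1 of the 7 members. The longer form GTGGGAA, which contains the core, was found in 0 of the 9 windows and in 6.38% of all windows. The N box CACNAG, a sequence bound by Hes proteins, was found in 4 of the 9 windows (those of Notch1, Notch2 and Notch3 and 1 of Dll1), a share near that of all windows, 42.5%. Both strands were searched. A match is a stretch of letters and not a measured binding site.

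The target genes split as the ligands did. Hes1 and the Hey genes encode basic helix-loop-helix repressors that are switched on by Notch in many tissues. Hes1, on chromosome 16 at 30065357 to 30067796, was at 39.6, 37.4 and 41.2 CPM in uninduced and 14.8, 11.97 and 14.2 CPM in induced libraries. The groups did not overlap, and Hes1 fell by 1.52 ± 0.08 on the log2 scale (SE, edgeR adjusted p = 3.4e-15). Heyl, on chromosome 4 at 123233556 to 123249870, had the largest fall of the 10 members. It was at 27.5, 29.3 and 26.1 CPM in uninduced and 4.62, 8.15 and 6.66 CPM in induced libraries. The induced libraries were all far lower but varied more among themselves than for the other members called. The log2 fold change of Heyl was -2.10 ± 0.12 (SE, edgeR adjusted p = 1.5e-11), and 1.76% of all tested genes were lower still.

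Hey1, on chromosome 3 at 8663359 to 8667038, rose instead. It was at 10.3, 10.3 and 9.64 CPM in uninduced and 35.1, 32.2 and 34.2 CPM in induced libraries. The groups did not overlap, and the log2 fold change was 1.75 ± 0.07 (SE, edgeR adjusted p = 8.2e-17), with 9.79% of all tested genes higher still. Within a library, Hey1 had 0.260, 0.275 and 0.234 times the counts of Hes1 in uninduced and 2.37, 2.69 and 2.40 times in induced libraries. The directions of these 3 target genes held under every scaling tried, and with library size only they were at -2.49 for Hes1, -3.07 for Heyl and 0.78 for Hey1.

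Rbpj encodes the DNA-binding partner through which all the receptors act. On chromosome 5 at 53555779 to 53657445, it was at 99.8, 95.9 and 100.6 CPM in uninduced and 167, 150.1 and 155 CPM in induced libraries. The induced libraries were all higher on this scale. The log2 fold change was 0.67 ± 0.05 (SE, edgeR adjusted p = 1.6e-12), but it was -0.29 with scaling by library size alone (edgeR adjusted p = 1.9e-06). Rbpj stood above the median of all genes under both scalings, a place that such a change of scaling hardly moves.

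**Figure D2:**
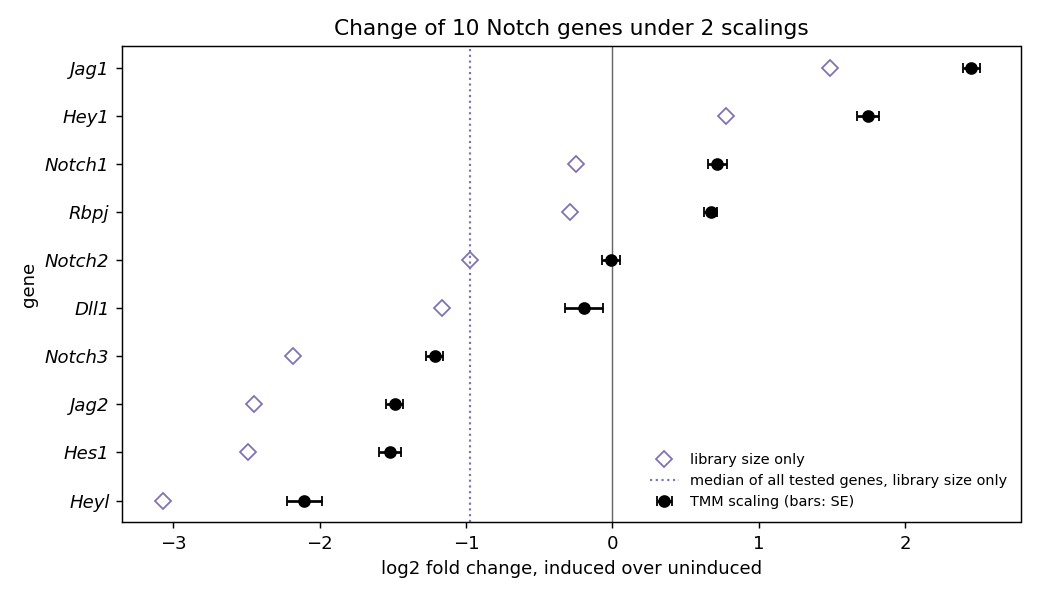
Log2 fold change, induced over uninduced, of the 10 Notch genes with TMM scaling (filled points, bars are SE) and with library size only (open diamonds). Jag1 and Hey1 are above 0 and Notch3, Jag2, Hes1 and Heyl below 0 with both scalings, whereas Notch1 and Rbpj change side; the dotted line is the median of all tested genes with library size only, -0.97.

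The shares of counts within each role do not depend on the scaling between libraries, and they changed in all 3 roles. Of the counts of the 3 receptors, Notch3 held 39.0% ± 1.06 in uninduced and 18.3% ± 0.464 in induced libraries (SD, n = 3 each). Notch1 went from 22.1% ± 0.25 to 39.7% ± 0.275, and Notch2 from 38.9% ± 1.06 to 42.03% ± 0.468. Of the counts of the 3 ligands, Jag1 went from 25.3% ± 1.42 to 82.3% ± 0.749 and Jag2 from 68.7% ± 1.98 to 14.6% ± 0.0932. Dll1 went from 6.0% ± 0.569 to 3.15% ± 0.661. Of the counts of the 3 targets, Hey1 went from 13.1% ± 0.467 to 62.6% ± 1.49, Hes1 from 51.1% ± 2.48 to 25.3% ± 2.198 and Heyl from 35.8% ± 2.09 to 12.1% ± 3.56. None of the 9 shares overlapped between the groups. In CPM the groups were apart for 83.1% of all genes tested, but that figure is for single genes and not for shares. In CPM the groups of Notch2 and Dll1 overlapped. The 3 shares of a role add up to the whole, so a change of 1 gene moves the others and the shares are not separate results. Notch2 and Dll1, whose shares moved least, were not called by edgeR with TMM scaling. The exact two-sided permutation test gave p = 0.1 for each, also after adjustment over the 9 shares, which is the smallest p that 3 libraries against 3 allow.

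**Figure D3:**
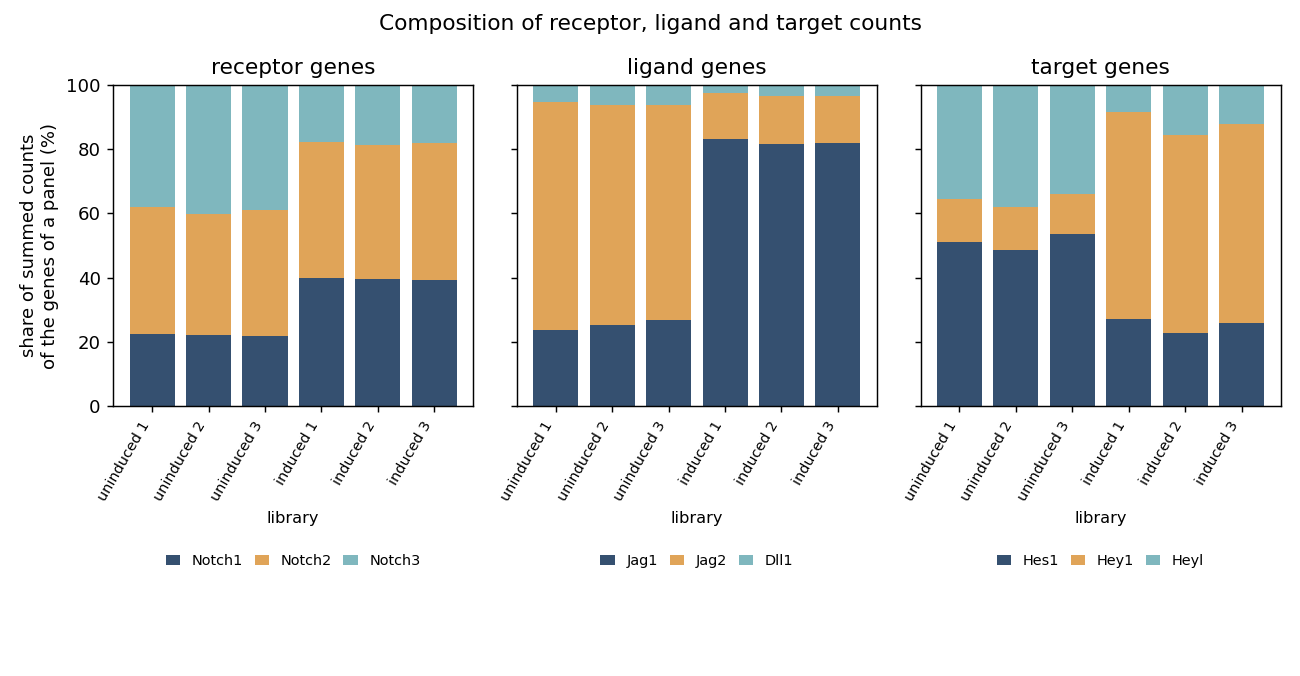
Share (%) of each gene in the summed counts of the receptors, ligands and targets, 1 bar per library. Jag1 takes 81.7% to 83.1% of the ligand counts of induced libraries and 23.8% to 26.7% of those of uninduced libraries, and Hey1 61.5% to 64.3% against 12.5% to 13.4% of the target counts.

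Levels can be compared between genes after division by length, given here as CPM per kilobase of GENCODE M21 exon. In uninduced cells Hes1 was highest, at 19.3 ± 0.931 CPM per kilobase (SD, n = 3). Notch3 at 11.6 ± 0.755 and Jag2 at 11.0 ± 0.273 followed, with overlapping ranges. Below them came the levels of Notch2 (8.70 CPM per kilobase), Rbpj (7.75), Heyl (5.40), Jag1 (4.86), Notch1 (3.76), Hey1 (3.09) and Dll1 (1.59), of which only the neighbours Heyl and Jag1 overlapped. In induced cells Jag1 was highest, at 26.6 ± 1.94 CPM per kilobase (SD, n = 3), above Rbpj at 12.3 ± 0.68 and Hey1 at 10.4 ± 0.455. The levels of Notch2 (8.64 CPM per kilobase), Hes1 (6.71), Notch1 (6.18), Notch3 (5.01), Jag2 (3.93), Dll1 (1.39) and Heyl (1.27) followed, with overlapping ranges for Hes1 with Notch1 and for Dll1 with Heyl. Jag1 thus moved from the seventh to the first place and Hes1 from the first to the fifth. Exon lengths include every annotated transcript, and the annotation used for the counting is not given in the sources used here.

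The other genes of the pathway were read from a list of 65, of which 54 were tested. Of these 54 genes, 20 were higher, 21 lower and 13 not called, beside backgrounds of 41.3% higher and 41.2% lower. Their median log2 fold change was -0.01, equal to that of all genes at this precision, while single genes ranged from -2.92 to 3.61. With library size only, 11 were higher and 40 lower, beside backgrounds of 15.2% higher and 76.7% lower. Of the further ligands, only Dlk2, a non-canonical Delta-like protein, had enough counts. It fell from 4.40, 5.53 and 5.08 CPM to 0.684, 0.712 and 0.574 CPM, a log2 change of -2.92 ± 0.22 (SE, edgeR adjusted p = 8.6e-12). Dlk1 had no count in any library, where 3 counts would be 0.0898 to 0.194 CPM. Of 8 further genes listed as targets 3 were tested. With TMM scaling 2 were higher and 1, Hes6, was lower, and with library size only 1 was higher, 1 lower and 1 not called. Hey2, the third Hey gene, rose from 1.23, 1.23 and 1.15 CPM to 4.67, 3.37 and 4.25 CPM, a log2 change of 1.77 ± 0.19 (SE, edgeR adjusted p = 6.3e-09). Hes6, known as an antagonist of Hes1 that favours muscle differentiation, fell from 86.7, 88.4 and 88.3 CPM to 39.0, 39.0 and 41.4 CPM, a log2 change of -1.14 ± 0.05 (SE, edgeR adjusted p = 2.6e-16).

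The 10 proteases and gamma-secretase genes that cut the receptors included 4 lower, 1 higher and 5 not called, with a median of -0.13. Of all genes tested 82.5% were called. With upper-quartile scaling 7 were lower and 0 higher by edgeR, where 6191 of all 12969 genes tested were lower. With library size only all 10 were lower, where 76.7% of all genes were lower. Their median of -1.09 there was near that of all genes, -0.97. Psenen, a small gamma-secretase subunit, fell from 28.9, 29.6 and 31.0 CPM to 11.9, 12.9 and 14.9 CPM, a log2 change of -1.17 ± 0.08 (SE, edgeR adjusted p = 1.1e-12). Aph1c, another subunit gene, was at 0.38 ± 0.15 (SE, edgeR adjusted p = 0.022). That call was lost without uninduced replicate 2 (edgeR adjusted p = 0.0681), without uninduced replicate 3 (0.0515) and without induced replicate 3 (0.0561), and Aph1c was at -0.59 with library size only. Aph1c is a close copy of Aph1b, and reads of these 2 genes may have been split between them. Of the 4 tested enzymes that put sugars on the receptors, 3 were lower and 0 higher by edgeR, with 1 not called. Of all genes tested 41.2% were lower. All 4 enzymes were lower with upper-quartile scaling, and also with library size only, where 76.7% of all genes were lower. Pofut1, which adds the fucose needed for ligand binding, fell from 42.1, 41.1 and 40.3 CPM to 19.9, 18.8 and 18.02 CPM, a log2 change of -1.12 ± 0.06 (SE, edgeR adjusted p = 4.6e-14).

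Of the 8 coactivators that work with the receptor's intracellular domain, 5 rose and 3 fell. Of all genes tested 41.3% were called higher and 41.2% lower. The counts of coactivators were the same with library size only, where 15.2% of all genes were higher and 76.7% lower. The median of the coactivators was 1.12 with TMM and 0.16 with library size only. Snw1, which encodes the RBPJ-binding and splicing protein SKIP, rose from 76.7, 74.4 and 76.9 CPM to 809, 806 and 821 CPM. Its log2 change of 3.42 ± 0.04 (SE, edgeR adjusted p = 2.6e-27) exceeded that of every member. Maml2, a Mastermind-like coactivator, fell from 17.9, 15.8 and 17.2 CPM to 9.75, 12.8 and 8.55 CPM, a log2 change of -0.72 ± 0.11 (SE, edgeR adjusted p = 2.9e-06). Of 14 tested corepressor genes, which hold target genes silent or carry repression by Hes proteins, 8 were higher, 4 lower and 2 not called. The background was again 41.3% higher and 41.2% lower. With library size only 3 corepressor genes were higher and 9 lower, where 15.2% of all genes were higher and 76.7% lower. Tle4, a Groucho-type corepressor that Hes proteins recruit, rose from 6.14, 5.76 and 4.98 CPM to 69.9, 66.1 and 70.6 CPM, a log2 change of 3.61 ± 0.07 (SE, edgeR adjusted p = 6.4e-23).

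Of 14 tested genes for trafficking and turnover of the receptors and ligands, 4 were higher, 5 lower and 5 not called, beside 82.5% of all genes called. With library size only 2 were higher and 12 lower, beside 15.2% and 76.7% of all genes. Fbxw7, the ubiquitin ligase adaptor that marks the intracellular domain for decay, rose from 20.4, 19.6 and 18.3 CPM to 71.2, 75.5 and 76.7 CPM, a log2 change of 1.94 ± 0.06 (SE, edgeR adjusted p = 1.4e-19). Neurl1a, a ubiquitin ligase that acts on ligands, fell from 23.9, 22.7 and 23.5 CPM to 8.15, 8.28 and 10.0 CPM, a log2 change of -1.40 ± 0.09 (SE, edgeR adjusted p = 2.5e-13).

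**Figure D4:**
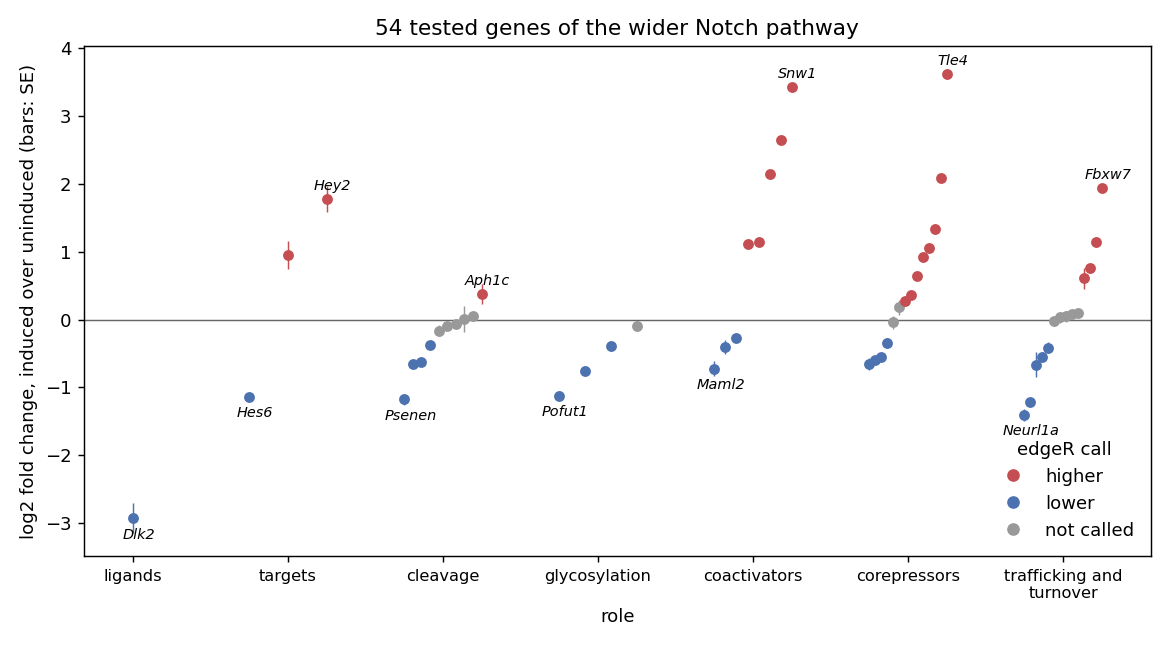
Log2 fold change, induced over uninduced (TMM scaling, bars are SE), of the 54 tested genes of the wider pathway by role, coloured by edgeR call, with the named genes marked. Single genes reach 3.61 (Tle4) and -2.92 (Dlk2). With library size only 11 of the 54 are called higher and 40 lower, beside 15.2% and 76.7% of all genes tested.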

How the data were processed

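The deposited table holds raw read counts of 24028 Entrez genes in 6 libraries, made with a TruSeq kit per the labels' protocols. Reads were handled with CASAVA, TopHat2 2.0.12, Bowtie2 2.2.3 and mm10, per the submitters' processing notes. The counting tool, with its strand setting and annotation, is not given in the sources used here, so overlapping, antisense and near-identical genes may share reads. Replicates are separate cultures of 1 clone, per the series text, and p-values measure the spread between them.

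In R 4.3.3, genes with few counts were removed with filterByExpr (12969 kept) and libraries scaled with TMM (mean factors 1.40 uninduced and 0.716 induced). The test was the quasi-likelihood test of edgeR 4.0.16 (robust=TRUE, group as the only term, two-sided, Benjamini-Hochberg over all tested genes, threshold 0.05). SE was taken as the absolute log2 change over the root of the F statistic. The fit was tested on simulated data in which 12629 of 12829 tested genes were unchanged. Of these 0.13% were called, and of genes changed by 0.5 on the log2 scale 90% were called. Far fewer genes changed there than were called in these data, so the simulation does not test the scaling. Gene positions and start windows come from RefSeq GRCm38.p6 and exon lengths from GENCODE M21, the same assembly as mm10. Antisense or overlapping exons cover 7.50% and 2.91% of the exon bases of Notch1, 5.02% of Notch2 and 6.03% of Notch3.

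The members and lists were chosen with earlier results of these data known. The genes named are the 10 members and, in each role of the wider list, the largest rise and the largest fall among called genes with a mean of at least 1 CPM. The result of 1 gene that this rule selects is not reported here. The alternatives were DESeq2 1.42.0, limma-voom with limma 3.58.1, scaling by upper quartile, RLE or library size alone, no or another count filter, robust=FALSE, a replicate block and each library left out.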

Additional observations from a re-analysis of the deposited data

How the results depend on the processing

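Over the 21 named genes and 15 alternatives, 302 of 315 values kept both their direction and their side of the threshold, counting as kept a gene called by neither. With scaling by library size alone Notch1 (-0.25), Rbpj (-0.29) and Aph1c (-0.59) reversed. Under that scaling 1977 genes of the whole table were higher and 9949 lower, as were 2 and 8 of the members and 11 and 40 of the other pathway genes. Under the other alternatives none of these 3 sets' counts of calls moved by more than 1.5 times. Within roles, however, upper-quartile scaling took the lower calls from 4 to 7 among the 10 genes that cut the receptors. It took them from 1 to 2 among both the receptors and the ligands. Lower calls among all genes tested went from 5347 to 6191 with that scaling. The calls gained were Notch2 and Dll1, each with upper-quartile scaling and with library size only, and the calls lost were all of Aph1c, by DESeq2 (adjusted p = 0.0565), upper-quartile scaling, no low-count filter and 3 left-out libraries. With each library left out in turn, 8 members were called each time and the log2 fold change of Heyl, the widest of the members, ran from -2.29 to -1.90. The shares within a role moved by less than 1 SD between replicates. Same-numbered libraries deviated together at correlations of 0.0074 to 0.0787, so the numbers were not taken as pairs, although each library correlated best with its own number. A replicate block gave 10813 genes called, 8 members and 42 other pathway genes, and changed no call of a named gene. The depth leaves 11 of the 65 other pathway genes untested.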

Other observations

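The genes below are of the wider list but outside the naming rule, and were chosen after their values were seen. The acetyltransferase genes Kat2b and Crebbp went from 21.5 ± 0.675 to 134 ± 5.51 CPM and from 33.2 ± 4.24 to 146 ± 7.81 CPM (SD, n = 3 each). Of the other listed acetyltransferase genes, Ep300 was higher, at 1.10 on the log2 scale, and Kat2a lower, at -0.26 (edgeR adjusted p = 5.7e-05). The deacetylase genes Hdac1 and Hdac2 were at 1.05 and 0.92. Of the Groucho-type corepressors, Tle1 rose by 2.09 and Tle3 by 0.64 on the log2 scale, whereas Tle2, at -0.04, was not called and Aes, a short relative, fell by 0.59. The ubiquitin ligase gene Nedd4, at 981 ± 48.7 CPM in uninduced cells the most abundant gene of the wider list there, fell to 422 ± 6.91 CPM (SD, n = 3). These values are with TMM scaling. With scaling by library size alone Hdac2 was at -0.04 and Tle3 at -0.32, and neither Hdac2 (edgeR adjusted p = 0.33) nor Hdac1, at 0.09 (edgeR adjusted p = 0.0511), was called. Kat2b, Crebbp, Ep300 and Tle1 were still called higher, at 1.67, 1.17, 0.14 and 1.12.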
